A study of Mus musculus with 25 samples.

Results

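Trimethylation of lysine 4 of histone H3 (H3K4me3) was measured by chromatin immunoprecipitation and sequencing (ChIP-seq) in mouse fibroblasts after 8 days in M9, a chemical reprogramming medium, and set against the fibroblasts before M9. The comparison took the named rows of the deposited gene table that lie on autosomes, 23044 genes of 24453 rows, in 2 of the 25 labelled libraries. There was 1 library a side, so no test was possible, no p-value is given, and every difference describes these libraries and need not hold for the conditions. Genes were ranked after the values of both libraries had been put on a common scale, described below.

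The D8 library came from tdMEFs, the labels' name for the fibroblasts, kept for 8 days in M9 at 5% oxygen. M9 is serum-free and holds CHIR99021, which activates Wnt signalling, the BMP receptor inhibitor LDN193189 and the TGF-beta receptor inhibitor A83-01. It also holds retinoic acid, basic FGF and SMER28. Hh-Ag1.5 in it activates Smoothened, Parnate blocks the H3K4 demethylase LSD1, and RG108 blocks DNA methyltransferases. The D0 library came from tdMEFs in a serum-containing medium at 20% oxygen. Medium, every agent and oxygen changed together, and their parts cannot be told apart. The labels name no strain, genotype, sex or number of animals, and they do not say whether the stages share an animal or a culture. Beside H3K4me3 the series profiled H3K27ac, a mark of active regulatory elements, H3K4me1, which flanks promoters and covers enhancers, and H3K27me3, which Polycomb complexes place on silent developmental genes. A stage after 4 days in M9 (D4) is given where it adds to the comparison.

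H3K4me3 is placed around gene starts by SET1 and MLL complexes. It is strong where transcription initiates, and CpG-rich promoters also carry it at lower levels when the gene is silent, often together with H3K27me3. Promoters with few CpGs carry little of it unless they are transcribed. A level of the mark is therefore a measure of the promoter and not of the amount of RNA, and it was not compared with RNA here.

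The windows printed next are promoters of genes at both ends of the ranking and of a gene from each of 2 lists described below, so that the difference in CpG content between the ends can be read directly. Each holds 300 bases on the gene's own strand, 250 before and 50 after the RefSeq start in GRCm38.p6, with every CG in capitals. The first 3 belong to genes whose H3K4me3 was higher at D8. They are Cadps at chr14:12823030-12823329 (minus strand, 17 CGs), Zfp536 at chr7:37769703-37770002 (minus strand, 22 CGs) and Hhip at chr8:80057959-80058258 (minus strand, 30 CGs).
Cadps: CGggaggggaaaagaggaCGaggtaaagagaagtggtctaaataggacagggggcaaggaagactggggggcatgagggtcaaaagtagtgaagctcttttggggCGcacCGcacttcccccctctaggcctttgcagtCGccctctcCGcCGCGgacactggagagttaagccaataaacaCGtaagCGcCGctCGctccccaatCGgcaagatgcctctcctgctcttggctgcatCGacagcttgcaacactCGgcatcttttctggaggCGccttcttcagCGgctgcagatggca
Zfp536: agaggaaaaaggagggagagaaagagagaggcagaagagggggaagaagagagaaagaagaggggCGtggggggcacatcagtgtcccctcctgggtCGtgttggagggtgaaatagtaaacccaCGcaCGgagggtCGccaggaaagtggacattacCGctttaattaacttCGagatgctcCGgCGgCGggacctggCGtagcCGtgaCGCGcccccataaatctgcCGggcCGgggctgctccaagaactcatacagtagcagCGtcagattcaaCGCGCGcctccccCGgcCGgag
Hhip: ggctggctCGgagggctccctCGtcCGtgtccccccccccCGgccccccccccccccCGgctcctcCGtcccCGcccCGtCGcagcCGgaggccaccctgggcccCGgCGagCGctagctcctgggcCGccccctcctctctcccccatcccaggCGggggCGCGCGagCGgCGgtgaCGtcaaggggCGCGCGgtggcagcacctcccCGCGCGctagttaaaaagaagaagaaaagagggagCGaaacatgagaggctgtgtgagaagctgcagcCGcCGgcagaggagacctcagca

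The next 3 belong to genes whose H3K4me3 was lower at D8. They are Aspn at chr13:49544193-49544492 (plus strand, 3 CGs), Cmklr1 at chr5:113643554-113643853 (minus strand, 8 CGs) and Lrrc17 at chr5:21543277-21543576 (plus strand, 6 CGs). Those of Aspn and Lrrc17 hold the TATA-box letters TATAAA, which none of the first 3 does.
Aspn: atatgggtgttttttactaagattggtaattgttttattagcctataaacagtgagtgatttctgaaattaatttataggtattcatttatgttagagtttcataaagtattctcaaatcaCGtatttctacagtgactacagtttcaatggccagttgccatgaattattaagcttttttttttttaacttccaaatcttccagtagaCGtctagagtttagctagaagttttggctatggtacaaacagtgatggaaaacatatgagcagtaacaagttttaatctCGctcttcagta
Cmklr1: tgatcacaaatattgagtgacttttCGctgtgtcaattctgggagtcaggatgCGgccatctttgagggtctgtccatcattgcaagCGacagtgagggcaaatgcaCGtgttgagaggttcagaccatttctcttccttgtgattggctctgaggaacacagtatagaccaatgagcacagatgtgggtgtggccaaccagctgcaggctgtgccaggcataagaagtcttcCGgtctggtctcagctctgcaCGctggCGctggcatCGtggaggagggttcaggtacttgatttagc
Lrrc17: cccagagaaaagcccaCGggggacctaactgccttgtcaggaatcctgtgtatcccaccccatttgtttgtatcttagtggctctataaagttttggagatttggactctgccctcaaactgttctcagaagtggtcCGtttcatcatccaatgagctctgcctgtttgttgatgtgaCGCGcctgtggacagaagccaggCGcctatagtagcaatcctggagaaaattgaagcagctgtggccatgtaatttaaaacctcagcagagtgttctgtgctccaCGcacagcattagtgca

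The last pair belongs to the low-oxygen list and to the mitosis list. Egln3, at chr12:54203825-54204124 (minus strand, 16 CGs), was among the genes higher at D8, and its window holds 1 match to the core of the hypoxia-response element (ACGTG or GCGTG, either strand). Ccnb2, at chr9:70421505-70421804 (minus strand, 19 CGs), was among the genes lower at D8. Its window holds 3 CCAAT boxes and 2 matches to the cell cycle genes homology region (TTTGAA or TTCGAA, either strand).
Egln3: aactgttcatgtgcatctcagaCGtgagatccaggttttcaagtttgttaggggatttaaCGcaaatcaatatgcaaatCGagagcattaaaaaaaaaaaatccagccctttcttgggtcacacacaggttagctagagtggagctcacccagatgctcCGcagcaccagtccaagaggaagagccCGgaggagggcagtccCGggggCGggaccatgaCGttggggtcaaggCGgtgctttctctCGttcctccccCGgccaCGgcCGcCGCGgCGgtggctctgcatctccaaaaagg
Ccnb2: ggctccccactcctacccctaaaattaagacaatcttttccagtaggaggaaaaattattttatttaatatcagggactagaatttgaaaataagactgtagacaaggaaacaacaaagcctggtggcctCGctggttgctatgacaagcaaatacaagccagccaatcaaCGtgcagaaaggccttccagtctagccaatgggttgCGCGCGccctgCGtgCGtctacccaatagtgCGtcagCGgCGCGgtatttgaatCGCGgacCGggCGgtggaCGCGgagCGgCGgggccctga

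The D8 library implied 34.9 M reads and the D0 library 12.6 M, and 53.9% of the D8 reads against 18.8% of the D0 reads fell in the regions counted for genes. Values are RPM, reads-per-million of the library. The autosomal median was 12.3 RPM at D8 and 3.64 RPM at D0, the 99th percentile was 93.6 RPM at D8 and 32.8 RPM at D0, and the 25th percentile was 1.15 RPM at D8 and 1.66 RPM at D0. High genes were thus higher and low genes lower at D8, so no single factor put the libraries on 1 scale. Each gene's values were replaced by those of its rank in a distribution shared by both libraries (quantile normalisation over autosomal genes). The scaled log2 difference is log2 of scaled D8 over scaled D0, with a pseudocount of 1.41 added to both, which understates the difference of low genes. Comparison required a scaled value at or above the median, 7.96 RPM, in at least 1 of the libraries, and a gene is called higher or lower where the scaled values differ at least 2-fold.

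Sex-linked genes set the libraries apart before any autosomal gene is read. Xist, whose RNA silences an X chromosome in females, showed 47.9 RPM of H3K4me3 at D8 (95% Poisson interval 45.6 to 50.2) and 1.03 RPM at D0 (0.548 to 1.76). The mean of 5 Y-linked genes was 0.347 of the autosomal mean at D8 and 1.29 at D0. The libraries of the other 3 marks moved the same way for both measures, but their Xist intervals overlapped between D8 and D0. For H3K4me3 the X-linked mean was 0.424 of the autosomal mean at D8 and 0.464 at D0. The other marks went the other way. The ratio was 0.860 at D8 and 0.485 at D0 for H3K27me3, 0.570 and 0.483 for H3K27ac, and 0.528 and 0.490 for H3K4me1. A difference in the animals or cells behind the cultures cannot be told apart from 8 days in M9 in any result below, and X-linked and Y-linked genes were left out of the ranking.

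The label of a fibroblast culture fitted the markers at both stages. All 12 fibroblast markers, Col1a1, Col3a1, Thy1, Pdgfra and Twist1 among them, were at or above the autosomal median in both libraries, at 16.8 to 106.7 RPM at D8 and 9.74 to 62.4 RPM at D0. Of 8 neural stem cell markers 3 were at or above it at D8 and 3 at D0, but not the same 3. Nes, the highest at D8, had 3.25 RPM at D0, under the D0 median of 3.64. The range of the 8 was 5.36 to 39.6 RPM at D8 and 0.634 to 4.91 RPM at D0. The 6 blood and macrophage markers lay between 0.832 and 1.86 RPM at D8 and between 0.792 and 2.22 RPM at D0, all under the autosomal median of their library. No marker of 5 for neurons, 3 for astrocytes, 6 for epithelium or 3 for skeletal muscle reached the median at either stage, and of 5 for endothelium only Kdr, which encodes a VEGF receptor, did.

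Of the 12041 genes compared, 402 (3.34%) were at least 2-fold higher and 336 (2.79%) at least 2-fold lower at D8 on the scaled values. The median scaled difference was -0.01, and the middle of the distribution, between its 25th and 75th percentiles, ran from -0.26 to 0.25. As deposited, the median compared gene was higher at D8 by 1.52 on the log2 scale. The scaling removes that shift, and "higher" or "lower" below means relative to the other genes unless RPM are named. Of the 402 genes higher at D8, 107 were above the filter at both stages and 295 passed it only through D8. Of the 336 lower, 90 were above it at both stages and 246 passed only through D0. For many genes the call therefore rests on being near background in 1 of the libraries.

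**Figure D1:**
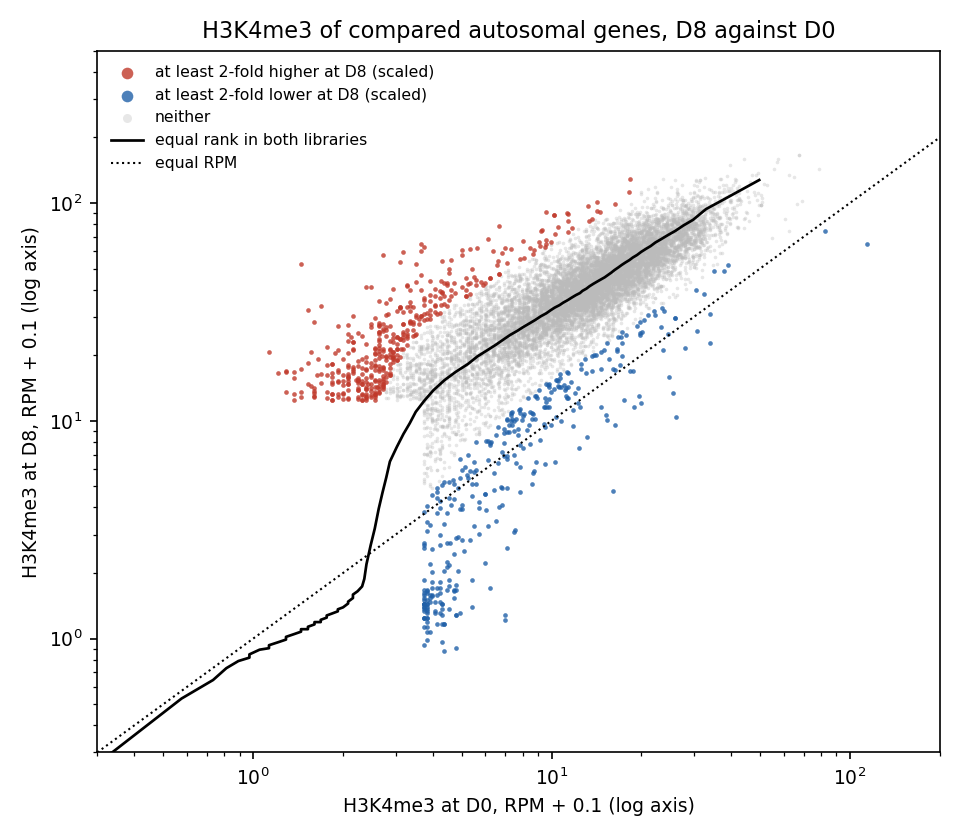
H3K4me3 of the 12041 compared autosomal genes, D0 on the x axis and D8 on the y axis, in deposited RPM with 0.1 added for the log axes. Red points are the 402 genes higher and blue points the 336 lower at D8 after scaling, the solid line joins equal ranks and the dotted line equal RPM; the red genes lie mostly at 1 to 10 RPM at D0, and many blue genes lie above the dotted line.

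The 402 genes higher at D8 had a median of 22.8 RPM at D8 and 2.69 RPM at D0. At D0, 29 of them lay in the lowest quartile of levels, 267 in the second, 97 in the third and 9 in the highest. Apart from some at or near the D0 median, genes of the first pair of quartiles could be compared only through a high D8 value. The exceptions include 9 lower genes of the second quartile, with medians of 3.64 RPM at D0 and 1.35 RPM at D8. The filter thus sets the places of the higher genes in large part. The 336 genes lower at D8 had a median of 6.31 RPM at D8 and 6.81 RPM at D0, and 265 of them came from the third quartile of D0 levels. As deposited, 186 of the 336 had fewer RPM at D8 than at D0, and for 126 of these the Poisson intervals did not overlap. The other 150 had more RPM at D8 and are lower only relative to the other genes. At D4, where the library implied only 2.77 M reads, the genes higher at D8 had a median of 9.01 RPM and those lower had 4.69 RPM.

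Cadps, which primes secretory vesicles for release, stood first in the ranking, with 52.6 RPM at D8 (50.2 to 55.02) and 1.35 RPM at D0 (0.784 to 2.16), a scaled log2 difference of 3.82. Its level at D4 was 18.03 RPM. Perp, a tetraspan protein of desmosomes and a p53 target, had 32.2 RPM at D8 and 1.43 RPM at D0, a scaled difference of 3.09. Both had D0 values below the autosomal 25th percentile of that library, 1.66 RPM, and D8 values above the D8 median. Zfp536, a zinc-finger gene of the nervous system, had 41.2 RPM at D8 and 2.30 RPM at D0. Hhip, the membrane protein that binds Hedgehog and is itself a Hedgehog target, had 57.7 RPM at D8 and 2.61 RPM at D0, with 33.2 RPM at D4. The scaled difference was 3.01 for Zfp536 and 2.98 for Hhip.

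The rest of the 15 highest genes mixed nervous system, signalling and epithelial genes. Fut9, which makes the Lewis X carbohydrate, had 40.9 RPM at D8 and 2.38 RPM at D0. Trnp1, a nuclear protein of radial glia, had 28.4 RPM at D8 and 1.505 RPM at D0, and Lrrn1, a leucine-rich repeat membrane protein, had 20.6 RPM at D8 and 1.03 RPM at D0. The kainate receptor subunit gene Grik4 and the potassium channel gene Kcnj4 had 27.3 and 24.8 RPM at D8, and both had 1.98 RPM at D0. The growth factor gene Pdgfb had 27.0 RPM at D8 and 1.82 RPM at D0, and the cytokine gene Il15 had 30.1 RPM at D8 and 2.06 RPM at D0. F11r, which encodes a tight-junction adhesion molecule, was the highest of them at D8, with 59.4 RPM there and 3.09 RPM at D0. Zfp385a, Tcf7 and Serinc2 complete the 15, with scaled differences of 3.08, 2.46 and 2.45. All 15 highest genes passed the filter only through D8, so the filter itself fixed the direction of their difference. In all 15 the D4 value lay between those of D0 and D8, from 5.41 RPM for Tcf7 to 33.2 RPM for Hhip. This is not particular to them, because these RPM are not scaled. The median of all compared genes also rose, from 12.6 RPM at D0 to 19.5 RPM at D4 and 39.3 RPM at D8.

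Aspn, a leucine-rich proteoglycan of connective tissue, was among the lowest in the ranking, with 10.3 RPM at D8 (9.29 to 11.5) and 26.1 RPM at D0 (23.3 to 29.0), a scaled log2 difference of -2.65. Meox1 and Meox2, mesodermal homeobox genes, both belonged to the 15 lowest. Meox1 had 1.12 RPM at D8 and 6.89 RPM at D0, whereas Meox2 had 11.96 RPM at D8 and 19.9 RPM at D0. Cmklr1, the chemerin receptor gene, had 1.18 RPM at D8 and 6.89 RPM at D0. At D8 Meox1 and Cmklr1 lay close to the autosomal 25th percentile of 1.15 RPM, while Aspn and Meox2 lay between it and the median.

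Among the other 10 lowest genes, Rspo2, a secreted Wnt agonist, had 15.8 RPM at D8 and 24.7 RPM at D0. Lrrc17 had 13.3 RPM at D8 and 25.3 RPM at D0, and Gas2, a cytoskeletal protein gene, had 11.4 RPM at D8 and 18.8 RPM at D0. Rgs4, a GTPase activator of G-protein signalling, had 9.44 RPM at D8 and 16.2 RPM at D0. The adipokine gene C1qtnf3, Angptl1 and Palmd had 1.61, 2.496 and 2.98 RPM at D8, against 6.10, 6.97 and 7.36 RPM at D0. Cd244, a natural killer cell receptor gene, the olfactory receptor gene Olfr921 and the beta-defensin gene Defb14 had only 4.28, 4.20 and 5.31 RPM at D0, close above the D0 median of 3.64, and 0.775, 0.861 and 1.29 RPM at D8. Of 1093 autosomal olfactory receptor genes 18 were compared, and all of these passed only through D0, so the filter itself fixed that they lay below 0. All 15 lowest genes were also lower in RPM as deposited, without overlap of their intervals. They were picked from these same values, so this is no independent support. Only Lrrc17 and Rspo2 were above the filter at both stages. The rest of the 15 passed only through D0, so the filter itself fixed that they lay below 0.

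**Figure D2:**
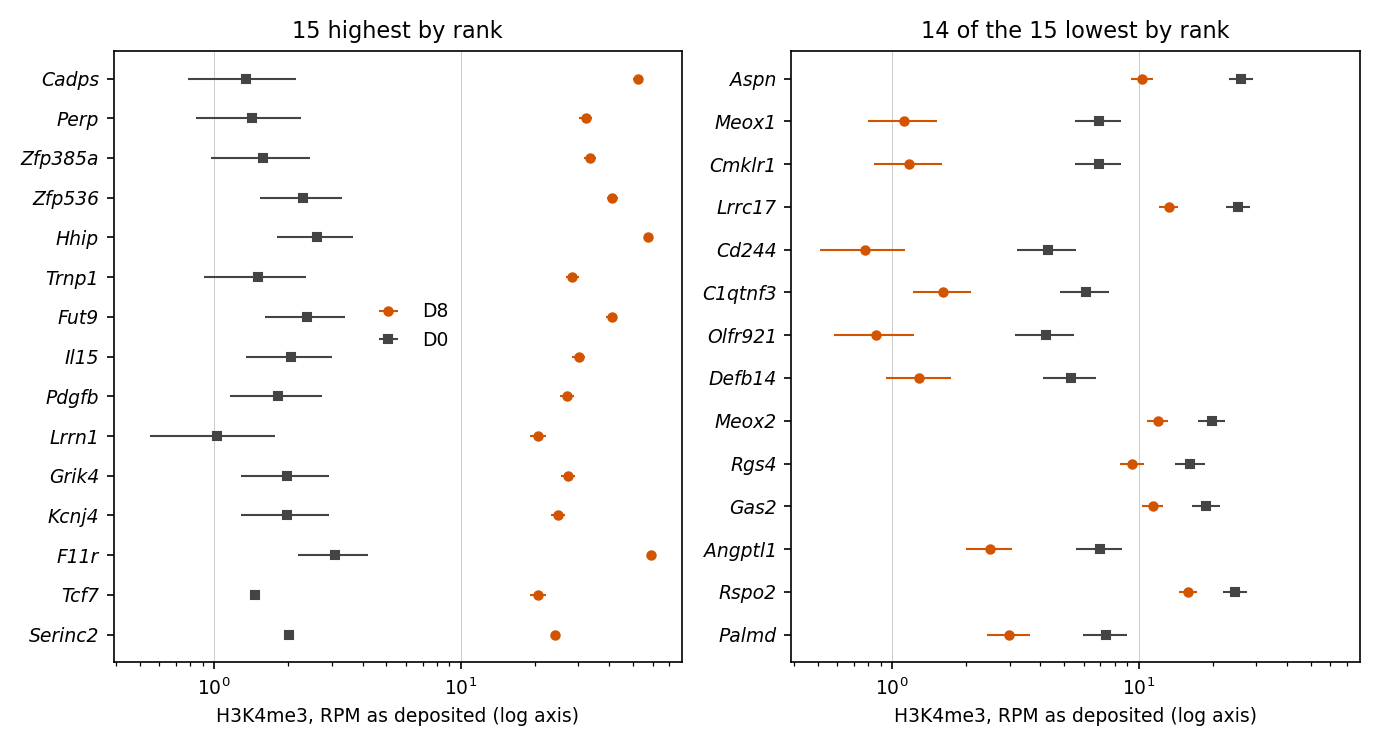
Deposited H3K4me3 RPM (log x axis) at D8 (circles) and D0 (squares) of the 15 genes highest and 14 of the 15 lowest in the ranking, with 95% Poisson intervals of the implied reads; values that were not whole multiples of 1 read (Tcf7 and Serinc2 at D0, Serinc2 at D8) have no interval. The D0 values of the 15 highest genes lie between 1.03 and 3.09 RPM, and the 14 low genes span 0.775 to 15.8 RPM at D8.

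Pathways that M9 acts on were read as lists of their known genes, each described by its counts and its median beside the median of all compared genes, -0.01, of which 48.8% were above 0. No test was run on a list. The called counts are to be read beside the shares over all compared genes, 3.34% higher and 2.79% lower. Counts such as 1 of 31 mesenchymal transcription factor genes or 1 of 33 Hox genes higher lie near that share. In RPM as deposited the median was above 0 in each of the 38 lists, the lowest being 0.74 for the mitosis genes, so every list median below 0 is a place relative to other genes. Members that passed the filter only through D8 had to lie above 0, among them Cadps, Perp, Hhip, Tcf7, F11r and Egln3. Those that passed only through D0 had to lie below 0. The filter thus fixed a part of the counts and medians of the lists. Some genes stand in more than 1 list.

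Hedgehog signalling runs through Ptch1 and Smo to the Gli transcription factors, and cells report it by Gli1 and the pathway's own inhibitors. Of 14 compared Hedgehog genes, of 17 autosomal, 4 were higher, none was lower and 12 were above 0, with a median of 0.52. Among the 4 were Hhip, Gli1 and Mycn, all targets of the pathway. Gli1 had 57.6 RPM at D8 (55.1 to 60.2) and 4.91 RPM at D0 (3.76 to 6.29), a scaled difference of 1.67. Ptch1, the main receptor and a target, was already high at D0: it had 115.8 RPM at D8 and 21.0 RPM at D0, a difference of 0.90 that did not reach the threshold. H3K27ac at Gli1 was 20.7 RPM at D8 and 1.26 RPM at D0. At Hhip it was 6.36 RPM at D8 and 4.42 RPM at D0 and at Mycn 2.54 RPM at D8 and 1.26 RPM at D0, with intervals that overlapped for both genes. The transducers lay closer to 0, with scaled differences of 0.16 for Smo and Gli3, 0.34 for Gli2 and -0.01 for Sufu, and the co-receptor gene Boc was at -0.34.

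Wnt feedback genes gave calls in both directions. Of 19 compared, 4 were higher and 2 lower, with a median of 0.21. Axin2, a negative regulator that canonical Wnt signalling induces, had 90.7 RPM at D8 and 9.50 RPM at D0, a scaled difference of 1.53. The transcription factors Tcf7 and Lef1 had 20.6 and 49.8 RPM at D8, against 1.47 and 4.44 RPM at D0, and their differences were 2.46 and 1.58. Ccnd1, the cyclin D1 gene, had 96.6 RPM at D8 and 13.2 RPM at D0, a difference of 1.24. The lower pair was Lgr5, the R-spondin receptor, and Sfrp2, a secreted Wnt-binding protein. Both were lower only after scaling: Lgr5 had 12.6 RPM at D8 and 11.2 RPM at D0 (scaled difference -1.38), and Sfrp2 had 12.5 RPM at D8 and 9.74 RPM at D0 (-1.23). Rspo2, named above, was lower on both scales.

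Retinoic acid induces its own receptor and its own clearance. Of 15 compared genes of its response, of 23 autosomal, 3 were higher and none lower, with a median of 0.38. Rarb, the receptor gene, had 43.9 RPM at D8 and 4.16 RPM at D0, a scaled difference of 1.496. Dhrs3, which returns retinaldehyde to retinol, had 91.3 RPM at D8 and 14.1 RPM at D0, and its H3K27ac was 44.9 RPM at D8 against 1.26 RPM at D0. Tgm2, the tissue transglutaminase gene, had 35.3 RPM at D8 and 2.53 RPM at D0, a difference of 2.41. The lowest member was Aldh1a3, a retinoic acid synthesis gene, at -0.47.

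Targets of BMP and TGF-beta, whose receptors M9 blocks, were spread around 0, with 1 of 26 higher, 2 lower and a median of 0.01. Of the lower pair Id2, a BMP target, had 48.7 RPM at D8 and 37.7 RPM at D0 and was lower only after scaling, at -1.09. The ligand gene Bmp2 was the member that was higher, with 61.9 RPM at D8 and 5.54 RPM at D0. Among 22 FGF-ERK feedback genes none reached the threshold in either direction, 18 were above 0 and the median was 0.26. The highest were Spred2 at 0.99 and Spry4 at 0.87, both inhibitors of the pathway, and the lowest was the phosphatase gene Dusp5 at -0.39.

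Low oxygen acts through HIF, which binds the hypoxia-response element and turns on glycolysis and oxygen-sensing genes. Of 25 compared genes of the low-oxygen response, 3 were higher, none was lower and 23 were above 0, with a median of 0.62. Egln3, an oxygen-sensing prolyl hydroxylase, had 60.02 RPM at D8 (57.5 to 62.6) and 3.56 RPM at D0 (2.60 to 4.77), a scaled difference of 2.19. Bnip3, a mitophagy receptor, had 78.4 RPM at D8 and 6.57 RPM at D0, and Ddit4, an mTOR inhibitor, had 91.2 RPM at D8 and 14.4 RPM at D0. Their differences were 1.76 and 1.04. At the bottom of the list was Pfkfb4, a regulator of glycolysis, at -0.80, with 13.9 RPM at D8 and 7.52 RPM at D0. Of 14 listed genes with a promoter window, 13 held ACGTG or GCGTG, against 66.7% of all compared genes with a window. Other lists had like shares, such as 10 of 11 windows of circadian clock genes, 15 of 17 of Polycomb subunit genes and 4 of 4 of retinoic acid response genes.

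Glycolysis genes, none of which stands in that list, lay at a median of 0.39, with 2 of 19 higher, none lower and 17 above 0. Slc16a3, the lactate exporter, had 54.5 RPM at D8 and 4.49 RPM at D0, a scaled difference of 1.69. Ldhb, a lactate dehydrogenase gene, had 27.6 RPM at D8 and 3.48 RPM at D0. Gapdh had 81.8 RPM at D8 and 22.4 RPM at D0, a difference of 0.31. H3K27ac stood higher at D8 for both lists, with medians of 0.93 and 0.83 on its own scaled log2 scale, against 0.22 for all compared genes. Other lists had like H3K27ac medians, with 0.81 for p53 targets, 0.79 for FGF-ERK feedback and 0.71 for sterol synthesis, and the pluripotency list had 1.46. The nuclear genes of oxidative phosphorylation had no member at the threshold among 42, and a median of -0.09.

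Genes of cell division sat at the other end. All 39 mitosis genes were compared and all 39 were below 0, with a median of -0.84; 10 were lower and none higher. Ccnb2, the cyclin B2 gene, was the lowest, with 7.63 RPM at D8 (6.74 to 8.61) and 7.76 RPM at D0 (6.30 to 9.46), a scaled difference of -1.47. It was the 1 member whose RPM was not larger at D8. The other 9 that were lower, such as Cdc25c, Tpx2, Bub1 and Top2a, had more RPM at D8 and were lower only after scaling. Top2a, which untangles DNA before division, had 24.8 RPM at D8 and 17.7 RPM at D0, a difference of -1.08. Cdk1, the mitotic kinase, had 36.0 RPM at D8 and 20.5 RPM at D0, a difference of -0.75. With 1 factor set on the highest quartile of genes, 5 of the 10 were called, and the median was -0.75.

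DNA replication genes followed with less distance from 0. Of 39 compared, 2 were lower, none higher and 31 below 0, with a median of -0.34. Cdc6 and Mcm10, which load and start the replicative helicase, were at -1.18 and -1.05, in both cases with more RPM at D8 than at D0. Ccne1, the cyclin E1 gene, was at the top, with 37.5 RPM at D8 and 6.26 RPM at D0, a difference of 0.76. Among 8 CDK inhibitor genes 2 were higher: Cdkn1a had 90.3 RPM at D8 and 11.2 RPM at D0 (difference 1.33), and Cdkn2a had 62.7 RPM at D8 and 9.38 RPM at D0 (1.01). H3K27me3 at Cdkn2a was 1.31 RPM at D8 and 5.48 RPM at D0. The median of these 8 was 0.33.

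Cdkn1a is also a p53 target, and of 23 compared p53 targets 4 were higher, none was lower and 19 were above 0, with a median of 0.55. Beside Cdkn1a and Perp these were Pmaip1, a pro-apoptotic BH3 gene, with 68.5 RPM at D8 and 6.02 RPM at D0, and Trp53inp1, with 82.8 RPM at D8 and 11.2 RPM at D0. The lowest was Tigar, a fructose bisphosphatase gene, at -0.31. The microRNA genes Mir34b and Mir34c, which p53 induces and which were looked up after the values had been seen, lie side by side and were both higher. Of 17 compared interferon-stimulated genes 2 were lower and none higher, with a median of -0.15. These were the neighbouring guanylate-binding protein genes Gbp2 and Gbp3, at -1.24 and -1.13, each with more RPM at D8 than at D0.

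Replication-dependent histone genes, looked up after the values had been seen, also lay below 0 for the most part. Of 68 autosomal clustered histone genes 59 were compared, 26 were lower, none was higher and the median was -0.94. Only 1 had fewer RPM at D8, and their median was 16.4 RPM at D8 and 9.74 RPM at D0. These genes lie close together and have near-identical copies, so the reads of single members are uncertain.

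Neural stem and progenitor genes gave the largest number of calls upward of any list. Of 50 named genes 47 were autosomal, 30 were compared and 17 were too low at both stages. Of the 30, 11 were higher and none lower, and 19 were above 0, with a median of 0.41. Several of the 11, named below, passed the filter only through D8, which fixed that they lay above 0. Nes, the intermediate filament of neural progenitors, had 39.6 RPM at D8 (37.5 to 41.7) and 3.25 RPM at D0 (2.33 to 4.40), a scaled difference of 1.79. The nuclear receptor gene Nr2f1 had 74.6 RPM at D8 and 9.11 RPM at D0, and the cadherin gene Cdh2 had 84.6 RPM at D8 and 13.5 RPM at D0. H3K27ac at Nr2f1 was 18.7 RPM at D8 and 1.90 RPM at D0, while its intervals overlapped between the stages at Nes and Cdh2.

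The other 8 were transcription factor genes at lower levels. Sox21, a SoxB factor, had 18.7 RPM at D8 and 2.14 RPM at D0, a scaled difference of 2.04. The POU factors Pou3f1, Pou3f2 and Pou3f3 had 15.2, 17.0 and 19.6 RPM at D8, against 1.90, 2.30 and 2.69 RPM at D0. Nkx6-1, a ventral neural tube regulator, had 12.7 RPM at D8 and 1.66 RPM at D0. The neighbours Zic2 and Zic5 had 32.0 and 19.8 RPM at D8, against 3.80 and 2.69 RPM at D0. All 8 carried H3K27me3 above the autosomal 75th percentile at both stages, between 5.93 RPM at Pou3f3 and 8.72 RPM at Pou3f2 at D8 and between 4.70 RPM at Pou3f3 and 9.98 RPM at Sox21 at D0. Nes, Nr2f1 and Cdh2 had 1.48, 1.40 and 1.57 RPM of it at D8. The neural calls depended on the filter and on the scaling. Nes, Sox21, Pou3f1, Pou3f2, Pou3f3, Nkx6-1 and Zic5 had D0 values under the autosomal D0 median of 3.64 RPM. They passed the filter only through D8, so the filter itself fixed that they lay above 0. With 1 factor set to the median difference in place of quantile normalisation, 5 of the 11 were called and the median fell to 0.23 over 38 compared genes. Sox21, Zic5, Pou3f3, Pou3f1, Pou3f2 and Nkx6-1 were then below the threshold, at 0.99, 0.86, 0.84, 0.81, 0.80 and 0.68.

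Not every neural gene moved. Sox2, a core regulator of neural stem cells, had 16.04 RPM at D8 and 4.67 RPM at D0, a scaled difference of -0.05, with H3K27me3 at 7.33 RPM at D8 and 8.22 RPM at D0. Emx2 was at -0.78. Olig2, a regulator of the oligodendrocyte lineage, had 5.36 RPM at D8 and 1.27 RPM at D0 and did not pass the filter. Of 12 compared proneural and early neuronal genes, of 38 autosomal, 1 was higher (Prox1, 24.3 RPM at D8 and 2.93 RPM at D0) and 1 lower (Ebf1, at -1.01 with more RPM at D8), and the median was 0.03, or -0.20 over 21 genes with 1 factor. Among vesicle release and synapse genes 18 of 42 were compared, 3 were higher and none lower, with a median of 0.44. These were Cadps, Unc13b, a vesicle priming factor, and Shank3, a postsynaptic scaffold. With 1 factor the median was 0.08 over 30 genes, and Unc13b, at 0.51, was not called. No astrocyte gene of 13 compared reached the threshold, and of 4 oligodendrocyte lineage genes the proteoglycan gene Cspg4 was lower, with 11.5 RPM at D8 and 12.4 RPM at D0.

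Fibroblast matrix genes gave the largest number of calls downward of any list. Of 45 compared, of 49 autosomal, 14 were lower and none higher, 40 were below 0, and the median was -0.65. In deposited RPM 8 of the 45 were lower at D8. Postn, the matricellular protein periostin, had 21.4 RPM at D8 (19.9 to 23.0) and 27.9 RPM at D0 (25.04 to 30.9), a scaled difference of -1.86. Col6a3, a collagen VI chain, had 21.1 RPM at D8 and 23.4 RPM at D0, and Lum, the proteoglycan lumican, had 16.8 RPM at D8 and 18.2 RPM at D0. For both the intervals overlapped. Col1a1 and Col1a2, the chains of collagen I, had more RPM at D8 but lay below 0 after scaling. Col1a1 had 82.9 RPM at D8 and 45.7 RPM at D0 (scaled difference -0.55), and Col1a2 had 74.2 RPM at D8 and 62.4 RPM at D0 (-0.96). Mmp2, a gelatinase gene, was at the top of the list at 0.85.

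Among 24 compared fibroblast surface and signalling genes 8 were lower and none higher, with a median of -0.56. Beside Cmklr1, S100a4, a calcium-binding protein of mesenchymal cells, had 2.12 RPM at D8 and 5.86 RPM at D0, a scaled difference of -2.01. The interleukin-33 receptor gene Il1rl1 had 2.64 RPM at D8 and 4.46 RPM at D0. The chemokine gene Cxcl12, the growth factor gene Hgf and the PDGF receptor gene Pdgfrb were lower only after scaling, with 25.5, 13.3 and 30.5 RPM at D8 against 20.0, 11.9 and 22.1 RPM at D0.

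Contractile genes of smooth muscle, which fibroblasts in serum also use, had 6 of 22 lower, none higher and a median of -0.34. Acta2, smooth muscle actin, had 22.7 RPM at D8 and 33.8 RPM at D0, a scaled difference of -2.04. Tagln, which encodes transgelin, had 12.3 RPM at D8 and 17.4 RPM at D0, with 2.52 RPM at D4. Cnn1, calponin, had 3.902 RPM at D8 and 6.57 RPM at D0. All 3 were lower in RPM without overlap of intervals. The general targets of YAP and TEAD, which serum and stiffness also drive, had no member of 22 at the threshold and a median of -0.03.

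Of 31 mesenchymal transcription factor genes 4 were lower and 1 higher, with a median of -0.12. The homeobox genes Meox1, Meox2, Alx4 and Prrx2 were lower, the last only after scaling, and the T-box gene Tbx2 was higher, with 60.9 RPM at D8 and 8.63 RPM at D0. Hox genes, which record position along the body, stayed near 0 as a whole (33 compared, 1 higher, 3 lower, median -0.05), and the 4 clusters, split after the values had been seen, ran from -0.75 to 0.33. Hoxc had a median of -0.75 over 6 genes, with Hoxc10 at 4.73 RPM at D8 and 6.34 RPM at D0 and Hoxc9 at 3.87 RPM at D8 and 5.62 RPM at D0. Hoxa had a median of 0.33 over 12 genes, Hoxb 0.13 over 9 and Hoxd -0.29 over 8. Hoxd12 was the member that was higher, with 19.9 RPM at D8 and 2.93 RPM at D0. With 1 factor it was not called, at 0.78, and the list median was 0.15.

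**Figure D3:**
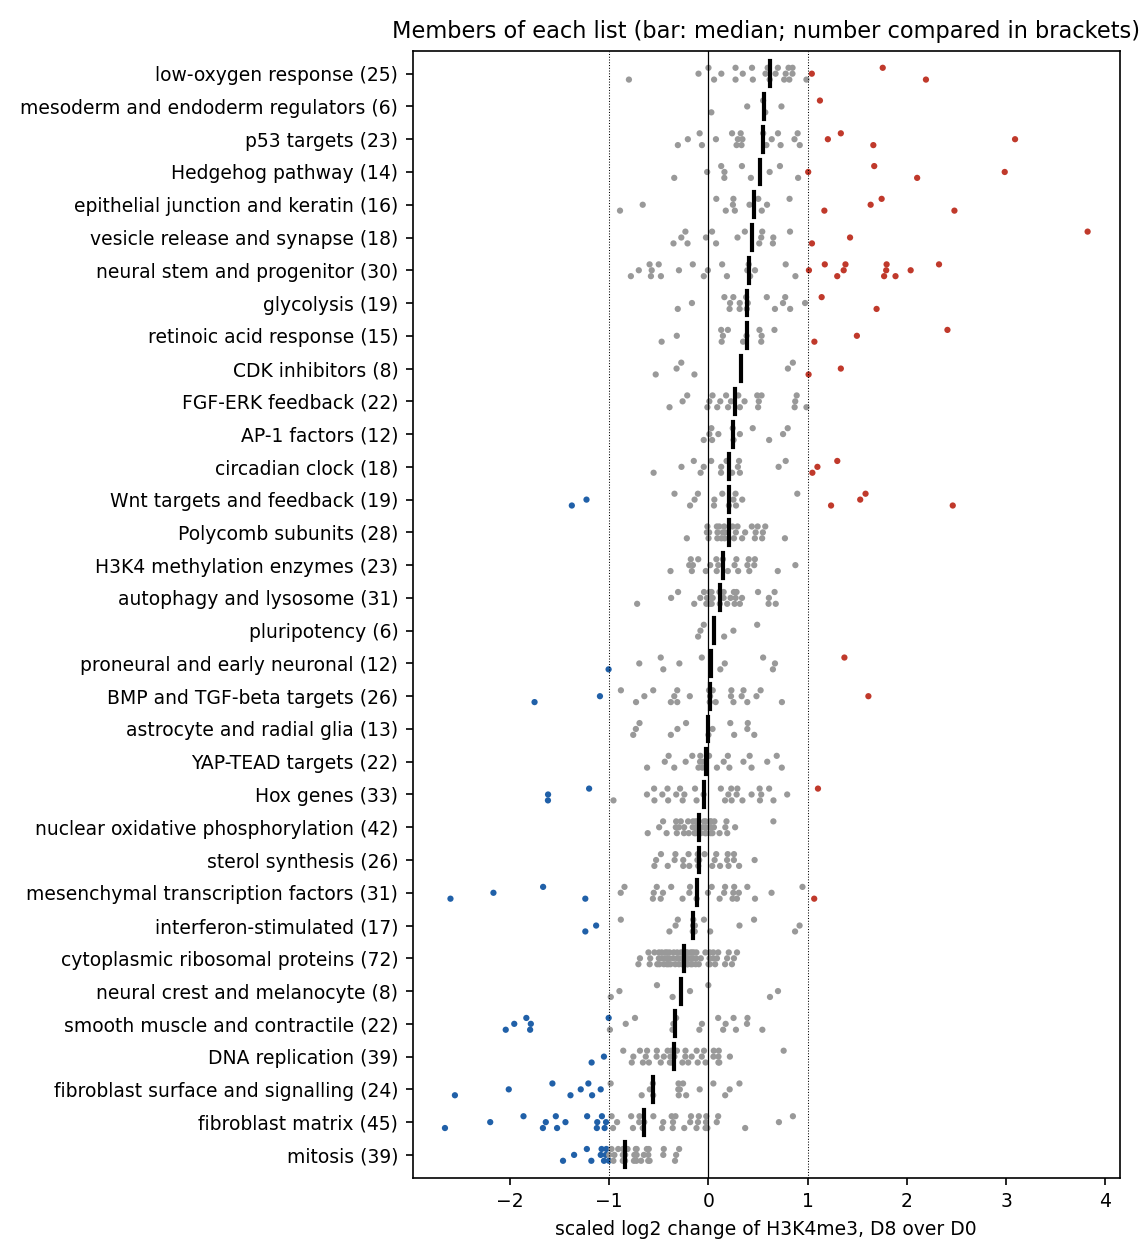
Scaled log2 difference of H3K4me3, D8 over D0 (x axis), of each compared gene in the lists with at least 5 compared genes, ordered by their median (black bar). Red and blue points pass the 2-fold threshold (dotted lines); the low-oxygen list has the highest median, 0.62, and the mitosis list the lowest, -0.84.

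Lists of other lineages held mostly genes too low to compare. Of 44 epithelial junction and keratin genes 16 were compared, 4 were higher and none lower, with a median of 0.46. Dsp, desmoplakin, had 14.8 RPM at D8 and 2.14 RPM at D0, St14, a membrane protease, had 12.6 RPM at D8 and 1.98 RPM at D0, and Ocln, occludin, had 15.5 RPM at D8 and 2.61 RPM at D0. F11r is the fourth. All 4 were under the autosomal D0 median of 3.64 RPM at D0 and passed the filter only through D8, so the filter itself fixed that they lay above 0. With 1 factor set to the median difference the list median was 0.25 over 25 genes and F11r alone was called, with Dsp at 0.68, Ocln at 0.56 and St14 at 0.54. H3K27me3 at Dsp, St14 and Ocln was 4.97, 5.84 and 5.93 RPM at D8. Of 26 mesoderm and endoderm regulators 6 were compared and 1 was higher, Gata6, with 72.2 RPM at D8 and 10.1 RPM at D0. None of 6 compared pluripotency genes and none of 8 neural crest and melanocyte genes reached the threshold, and 2 blood, 2 skeletal muscle and 3 endothelial genes were high enough to compare, none of them past it.

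Several broadly expressed groups had no member past the threshold. The 72 cytoplasmic ribosomal protein genes had a median of -0.24, 57 of them below 0, and ranged from -0.71 for Rps9 to 0.29 for Rpl38. Sterol synthesis genes (26 compared) had a median of -0.10 and autophagy and lysosome genes (31) of 0.11. Polycomb subunit genes had a median of 0.21, with 25 of 28 above 0, and genes of enzymes that write or erase H3K4 methylation had 0.15 over 23. AP-1 factor genes had 0.25 over 12. Of 18 circadian clock genes 3 were higher, Bhlhe41, Hlf and Dbp, with 88.5, 30.4 and 55.2 RPM at D8 against 11.2, 3.80 and 7.76 RPM at D0. Actb, a common reference gene, was at 0.01.

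Promoter sequence, which the ranking did not use, differed most at the lower end. Of all 336 lower genes 246 passed the filter only through D0 and so had to lie below 0. The shares of the lower genes therefore also describe which genes the filter admitted, and the 2 were not separated. Among compared genes with a single RefSeq start and a window, the 168 lower genes had a median of 6.5 CGs, against 22 in the 232 higher genes and 23 in the 6903 that were neither. Windows with 0 to 3 CGs made up 33.9% of the lower genes, 1.72% of the higher genes and 2.37% of all. Read the other way, 32.9% of the 173 compared genes with 0 to 3 CGs were lower, against 0.347% of the 1727 genes with 31 to 65, while the share that was higher was 2.31% in the first and 3.30% in the last of these classes. The D0 level moved with CpG content too: its median was 6.18 RPM in the class with 0 to 3 CGs and 15.1 RPM in that with 31 to 65. In the third quartile of D0 levels the median scaled difference was -0.62, -0.13, 0.01 and 0.19 for 0 to 3, 4 to 11, 12 to 24 and 25 to 65 CGs. In the highest quartile the classes lay closer together, at -0.13, -0.25, -0.14 and -0.000948 in the same order. These quartiles were set by the D0 value that also enters the difference.

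**Figure D4:**
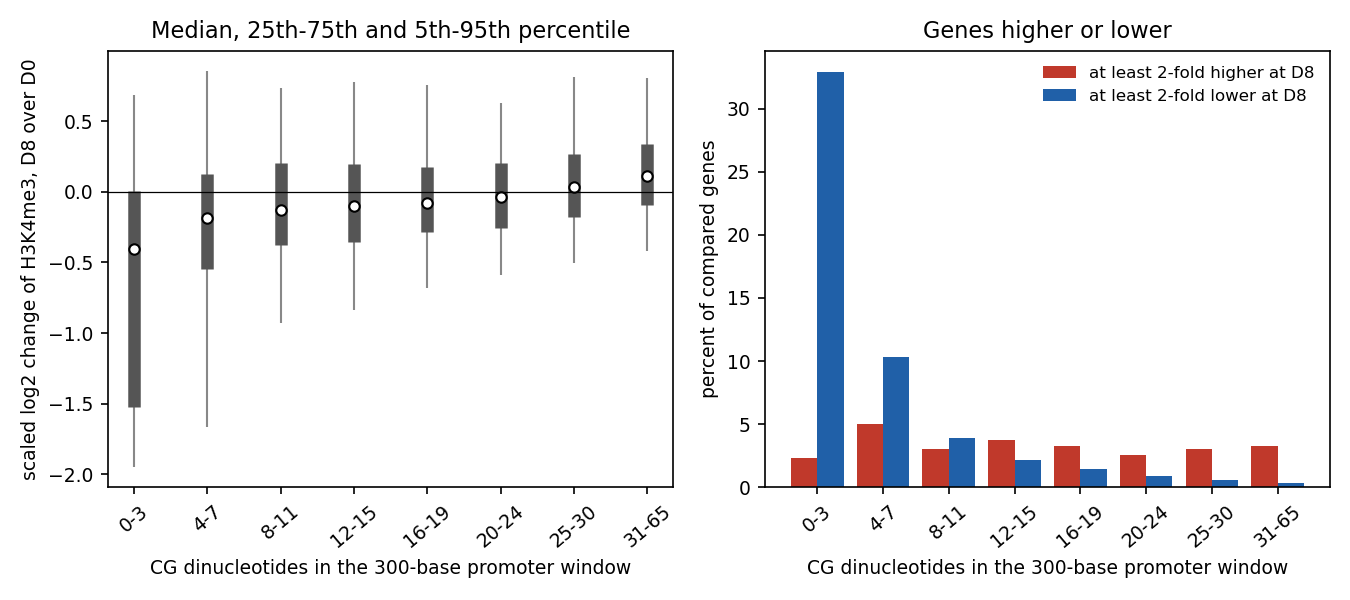
Left, median (circle), 25th to 75th (thick line) and 5th to 95th percentile (thin line) of the scaled log2 difference of H3K4me3, D8 over D0, for compared genes by the number of CGs in the 300-base promoter window; right, percent of each class at least 2-fold higher (red) or lower (blue). The share that was lower is 32.9% at 0 to 3 CGs and 0.347% at 31 to 65 CGs, while the median goes up along the classes, from -0.40 to 0.11.

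Short motifs were searched on both strands of the windows, and their matches follow base composition as well as any factor. The limit from the filter given for CpG content holds for the motif shares of the lower genes too. TATAAA was in 19.6% of the lower, 6.47% of the higher and 6.34% of all compared windows, and in 13.6% of all 13899 autosomal windows. The AP-1 letters TGANTCA were in 10.1% of the lower, 3.45% of the higher and 3.88% of all compared windows. The hypoxia-response core was in 36.9% of the lower and 63.8% of the higher windows; it holds a CG itself. The cell cycle homology letters TTTGAA and TTCGAA were in 31.5% of the lower, 13.4% of the higher and 12.8% of all compared windows. They were in 20 of 29 windows of the mitosis list, and CCAAT was in 19 of these, against 39.1% of all compared windows. CCAAT was also in 14 of 14 windows of the sterol synthesis list. The E2F letters TTTCCCGC, TTTCGCGC, TTTGCCGC and TTTGGCGC were in 9 of 26 windows of the DNA replication list, against 4.52% of all compared. GGAATG, the TEAD letters, was in 12.5% of the lower and 11.2% of the higher windows. GACCACCCA of Gli was in none of either and in 0.192% of all compared, and CTTTGAT of Tcf and Lef was in 3.57% of the lower and 3.02% of the higher windows.

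The other marks at the same genes came from libraries the ranking did not use. The labels do not say whether they share a culture with the H3K4me3 libraries. H3K27ac, scaled in the same way, had a median log2 difference of 0.32 at the 402 higher genes and -0.34 at the 336 lower genes, against 0.22 at all compared genes. It was above 0 at 287 (71.4%) of the higher, 108 (32.1%) of the lower and 62.5% of all. Of the higher genes 73 were at least 2-fold higher and 13 at least 2-fold lower in H3K27ac, and of the lower genes 9 were higher and 63 lower. The H3K27ac libraries implied 7.86 M reads at D8 and 1.58 M at D0, so single-gene D0 values rest on few reads. H3K4me1 was above 0 at 318 (79.1%) of the higher, 118 (35.1%) of the lower and 57.0% of all compared genes, with medians of 0.27, -0.16 and 0.04.

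H3K27me3 changed little in either class, with medians of -0.03 at the higher and 0.04 at the lower genes, against -0.07 at all compared. Its level did differ between classes. Of the higher genes 217 (54.0%) lay in the top quartile of H3K27me3 at D8 and 228 (56.7%) at D0. The shares were 34.5% at D8 and 29.8% at D0 for the lower genes, and 12.5% at D8 and 19.4% at D0 for all compared genes. H3K27me3 goes with a low H3K4me3 level, so genes were also set side by side within a quartile of D0 H3K4me3. Below the D0 median the filter admits genes by their D8 value, so only the third and the highest quartile, where every gene was compared, are given. In the third, 24.7% of the 97 higher genes lay in the top H3K27me3 quartile at D8 and 51.5% at D0, against 16.2% and 20.6% of the 5399 that were neither. The 265 lower genes also exceeded those that were neither, with 37.0% at D8 and 33.6% at D0, so a larger share was not particular to the higher genes. In the same quartile the median H3K27me3 difference was -0.27 at the higher genes and -0.01 at those that were neither, and the median H3K27ac difference was 0.86 against 0.17. At the lower genes these medians were 0.02 and -0.31. In the highest quartile only 9 genes were higher, and 0% of these lay in the top H3K27me3 quartile at D8 and 11.1% at D0. The shares were 24.2% at D8 and 12.9% at D0 for its 62 lower genes. For its 5690 genes that were neither they were 3.02% and 13.8%.

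**Figure D5:**
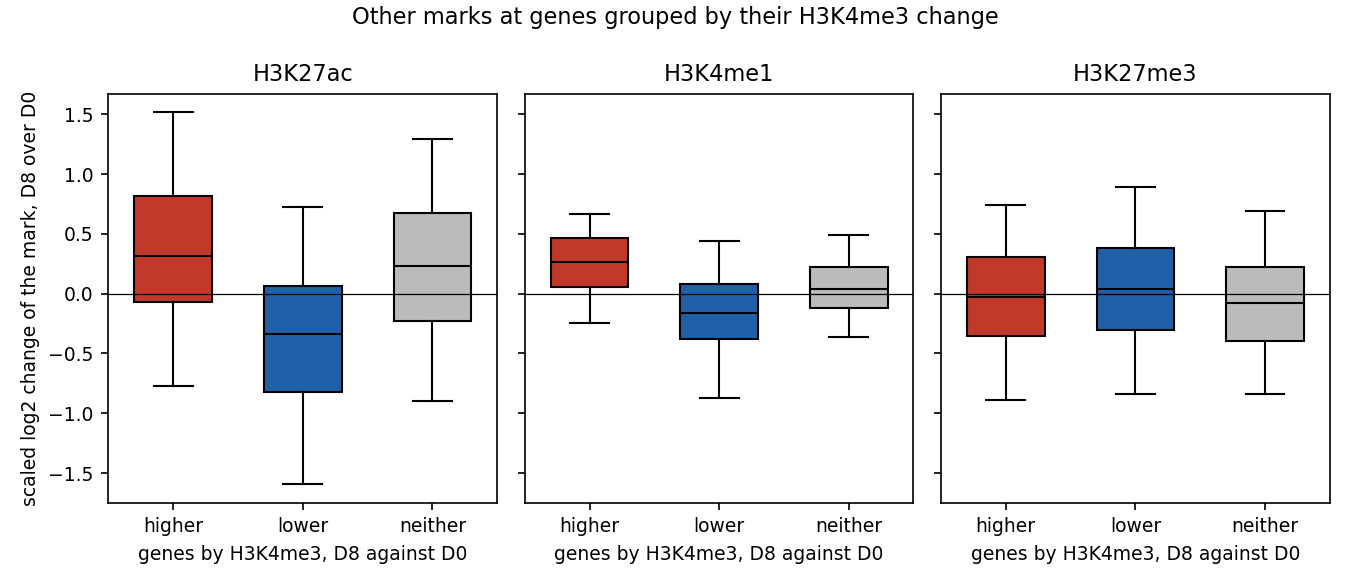
Scaled log2 difference, D8 over D0 (y axis), of H3K27ac, H3K4me1 and H3K27me3 at the 402 genes higher, the 336 lower and the 11303 neither in H3K4me3; boxes span the 25th to 75th percentile with the median as a line, and whiskers the 5th to 95th. The H3K27ac medians are 0.32, -0.34 and 0.23 in this order, and the H3K27me3 boxes overlap almost wholly.

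Higher and lower genes were spread over the autosomes. The share higher ran from 1.52% of compared genes on chromosome 16 to 5.67% on chromosome 12, and the share lower from 0.672% on chromosome 17 to 6.96% on chromosome 13, where most histone genes lie. Neighbours that share a promoter or an interval also share reads, and 14 stretches held at least 3 neighbouring compared genes called the same way. Ecm2, Aspn and Omd, which lie together on chromosome 13 and encode matrix proteins, were all lower. On chromosome 15 Hoxc10, Mir196a-2 and Hoxc9 were lower. Fbxo6, Fbxo44 and Fbxo2, F-box genes on chromosome 4, were higher, as were H19, its microRNA gene Mir675 and the neighbouring Mrpl23 on chromosome 7. Of the 14 stretches, those with histone genes were lower, which follows from no compared clustered histone gene being higher.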

How the data were processed

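The authors deposited 1 value per gene and library, in RPM (reads-per-million over the library). The unit was inferred from the values, of which 93.5% to 95.2% in a column are whole multiples of 1 read within 0.02 of a read. Per the submitters' processing notes, CASAVA 1.8.4, Bowtie 1.1.0, SAMtools 0.1.19, bedtools and the mouse build mm10 were used, in roles not stated. The region counted around a gene, input subtraction, duplicate removal and strand are given in none of the sources, so overlapping and antisense genes could not be separated. The table has 12 value columns that match a labelled library by name. Another 8 value columns matched no label and were not used.

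From 24453 rows, 27 date-like symbols and 205 genes with no read in any of the 12 columns were dropped. Of the 24221 kept, 24109 matched RefSeq genes of GRCm38.p6 (23175 by symbol, 934 by synonym), and 23044 were autosomal. Of these, 226 had values identical to another gene's. Both columns were quantile-normalised over autosomal genes. The pseudocount was the 25th percentile of the scaled values and the filter their median. Each other mark was scaled in the same way. With 1 library a side no test was run. Poisson intervals of the implied reads (95%) cover counting error alone, because PCR copies were not told apart by molecular identifiers. The ranking was tested on simulated data. Promoter windows and coordinates come from RefSeq, and CpG and motif shares use genes with 1 start.

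Named genes are the 15 at each end, leaving out predicted, non-coding and value-sharing symbols, the 3 highest and 3 lowest compared members of each list, and a short list of pathway, marker and reference genes; further called members of the lists were named after their values were seen. A few genes this rule selects are not reported here. The members and the 38 lists were chosen with earlier results of these data known, so they are no independent support. Alternatives to the scaling, pseudocount, filter, depth and gene set were tried. Python 3.11.15, numpy 2.4.6, pandas 2.3.3, scipy 1.17.1 and matplotlib 3.10.9 were used.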

Additional observations from a re-analysis of the deposited data

Results flagged for a closer look

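Xist had 47.9 RPM of H3K4me3 at D8 and 1.03 RPM at D0. It is X-linked and so lay outside the autosomal ranking, and it was looked at because a level of this size in 1 library only is a signal outside the comparison. Its part in the autosomal differences was not tested.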

How the results depend on the processing

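The counts of genes higher and lower, 402 and 336, depended on scaling, pseudocount and filter. Without scaling, 11735 genes were higher and 8 lower; with 1 factor set to the median difference, 240 and 207; with a pseudocount 4 times larger, 212 and 137; without a filter, 988 and 921; with the filter at the 75th percentile, 85 and 63. The other 6 settings gave 349 to 479 higher and 241 to 422 lower. With both libraries thinned to equal depth, 374 of the 402 and 325 of the 336 were called again. Without scaling, 11 genes that the naming rule selects and that were called lower had log2 differences above 0, 0.16 for Lgr5, 0.32 for Sfrp2, 0.36 for Id2, 0.19 for Cdc25c, 0.32 for Tpx2, 0.30 for Cdc6, 0.50 for Mcm10, 0.28 for Gbp2, 0.22 for Gbp3, 0.46 for Ebf1 and 0.32 for Hoxd3. Sox2 (1.53), Col1a1 (0.84), Cdk1 (0.77) and Col1a2 (0.25), none of them called, also turned from below to above 0. Setting RPM side by side in place of ranks is what turns them. Relative to all compared genes, 12 list medians changed sign under at least 1 setting, 4 of them at least 0.25 from 0 as reported: blood and macrophage (-0.0557 without scaling and with 1 factor), neural crest (0.0251 without a filter, 0.36 with the stricter one), endothelial (0.10 without a filter) and smooth muscle (0.14 with the stricter filter), where another set of members is compared. The other 8, all nearer to 0, were the proneural, astrocyte, Hox, BMP and TGF-beta, mesenchymal transcription factor, YAP-TEAD, skeletal muscle and interferon lists. Calls that single-factor scaling ends in the neural, vesicle, epithelial, Hox and mitosis lists are given beside them, and with the factor from the highest quartile Mcm10 (-0.88), Gbp3 (-0.996), Nkx6-1 (0.96) and Cdh2 (0.99) were not called. Of the 14 fibroblast matrix genes called lower, 11 were called with the median factor and 9 with that of the highest quartile. Il1rl1 and Hoxc9 did not pass the filter with the median factor. Of 417 list values 357 stayed close to the main value and 54 moved, and of 1001 gene values 817 stayed and 173 moved. No paired analysis was possible because each stage has 1 library and the labels give no replicate numbers, and for the same reason no library could be left out. Depth limits D4 (2.77 M reads) and H3K27ac at D0 (1.58 M) most.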
